A study of Mus musculus with 3 samples.

Results

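The Wnt genes of the array were its ligands, receptors, secreted antagonists and 3 genes that Wnt signalling is known to switch on. Members were chosen by name alone: every probe that all scanner files call Wnt, Fzd, Sfrp or Dkk with a number and at most 1 letter, and those of Lrp5, Lrp6, Axin2, Tcf7, Lef1 and Wif1. This gave 57 probes of 43 genes among 27688 gene labels: 19 ligands, 12 receptors, 9 antagonists and 3 targets. Another 2 probes that only some of the files call Fzd5 were left out.

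Total RNA, labelled with Cy3, was measured on 1-colour Agilent mouse arrays, with 1 array for each of 3 groups. The groups were mouse embryonic fibroblasts (MEF) labelled p53-null, MEF described by the design as p53 wt (wild type), and embryonic stem (ES) cells. Each carries a Nanog-GFP reporter, which puts a fluorescent protein under the control of a pluripotency gene. Strain, embryo age, passage and culture medium were not given in the sources used here, nor was the part of the p53 gene that was removed. The design asks how fibroblasts without p53 differ from MEF, and how ES cells differ from MEF.

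Wnt proteins are secreted, lipid-modified signals. On the receiving cell they bind a Frizzled receptor together with Lrp5 or Lrp6, which stops the breakdown of beta-catenin and lets it act with the DNA-binding proteins Tcf7 and Lef1 and their relatives. Secreted Frizzled-related proteins (Sfrp) and Wif1 bind Wnt proteins outside the cell, while Dkk1, Dkk2 and Dkk4 act on Lrp5 and Lrp6. Wnt signalling of this kind supports self-renewal of mouse ES cells, and Wnt5a and Wnt11 are best known for signalling without beta-catenin.

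Signals are given in the units of the MEF array, after each array was set to the same 75th percentile of its spots. Differences are on the log2 scale as the named group minus MEF, and ± is the scanner software's error model, typically 0.21 for a difference. With no replicate arrays there was no test, and this error leaves out any spread between cultures or embryos. A gene is called higher or lower where it differed at least 2-fold. Where a probe was not well above background on 1 array of a pair, the fold is a lower limit, written "at least", and where it was so on neither, none is given. Such limits hold for the scanner software's own background subtraction, and folds of dim signals were smaller with the normexp correction, which adds an offset of 50 units. Signals of different probes are not on a common scale, so each gene is compared with itself only.

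Trp53, the gene for p53, gave 44.7 units in p53-null MEF, 4870 in ES cells and 1304 in MEF at its brighter probe, a 29.1-fold lower signal without p53. A second Trp53 probe gave 208, 302 and 572 units in the same order, well above background in all groups, 2.76-fold lower in p53-null MEF and -0.92 ± 0.20 in ES cells, where the brighter probe gave 1.90 ± 0.20. The p53-null MEF array lay on a slide of its own with a scan of its own, so genotype, culture, slide and scan cannot be told apart. The ES cell and MEF arrays shared a slide and a scan. All 6 ES cell markers on the array were well above background in ES cells, 0 in p53-null MEF and 2 in MEF, with summed signals of 172565, 27.9 and 85.0 units. All 8 fibroblast markers were well above background in every group, with summed signals of 548661 units in p53-null MEF, 33186 in ES cells and 737280 in MEF. Of 7 macrophage markers, 3, 4 and 6 were well above background in p53-null MEF, ES cells and MEF, at 459.7, 631 and 2500.4 units summed. Of 5 glial and neural crest markers 3, 4 and 4 were so, at 499.9, 2215 and 4895 units. Single probes weigh heavily in these sums: Lyz2 gave 1980.4 units in MEF and Ngfr 2037 in ES cells. In ES cells Cd68 was 3.20-fold higher than in MEF and Itgam was well above background there alone, while Csf1r, Lyz2, Cd14 and Tyrobp were lower. The counts were 3, 3 and 3 of 5 for endothelium, 4, 5 and 4 of 6 for epithelium, and 4, 4 and 4 of 4 for smooth muscle, with smooth muscle sums of 445437, 11431 and 407864 units. Xist, made by the inactive X chromosome of female cells, gave 5927 units in p53-null MEF and was not well above background in ES cells or MEF. The part of other cell types and of embryo sex in the values below was not tested, and in RNA from whole cultures fewer cells of a type and less RNA per cell cannot be told apart.

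Of the 43 Wnt genes, 34 were well above background in p53-null MEF, 31 in ES cells and 34 in MEF, and 28 on all 3 arrays. Over the whole array, 26198, 27954 and 26462 of 43379 non-control spots were so in p53-null MEF, ES cells and MEF. The overlap between arrays was not counted over all genes. All 12 receptors were well above background in every group. Of the 19 ligands, 8 were so on all 3 arrays. Wnt3, Wnt3a and Wnt8a were well above background in ES cells alone, while Wnt2, Wnt10b, Wnt16, Dkk2 and Wif1 were so in both kinds of fibroblast and not in ES cells. Wnt1, Wnt7a, Wnt8b, Wnt9b and Sfrp5 were well above background on no array.

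**Figure D1:**
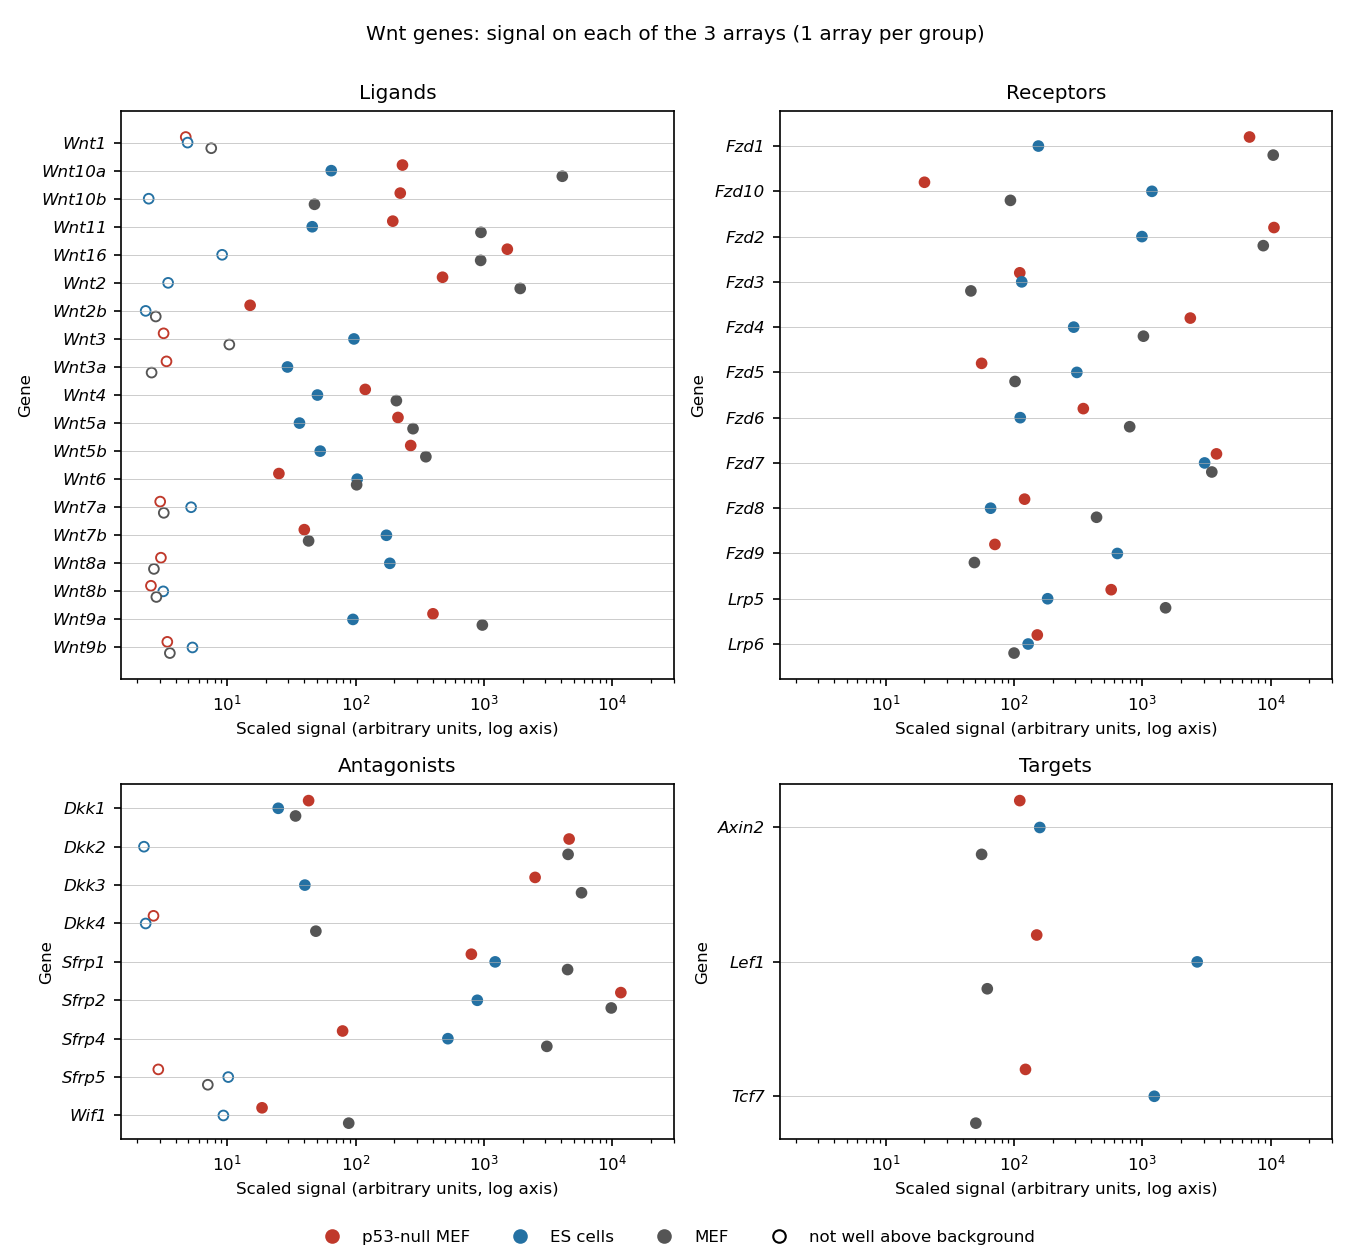
Scaled signal of each Wnt gene (arbitrary units, log axis) on the p53-null MEF, ES cell and MEF arrays, 1 point per array; open points are not well above background. All 12 receptors have 3 filled points, while Wnt3, Wnt3a and Wnt8a have a filled point in ES cells alone. Rows cannot be compared with each other.

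ES cells differed from MEF in most of the Wnt genes. Of 37 genes with a value, 11 (29.7%) were higher in ES cells and 22 (59.5%) were lower, with a median difference of -2.26. Of the 15397 RefSeq-matched genes with a value, 30.9% were higher and 29.7% were lower, and their median was 0.07. The share of higher Wnt genes was thus near that of all genes, and the share of lower ones was above it. The lower genes were 9 ligands, 6 receptors and 7 antagonists, and all 3 targets were higher.

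In p53-null MEF the differences were smaller. Of 35 Wnt genes with a value, 5 (14.3%) were higher than in MEF and 14 (40.0%) were lower, with a median of -0.39. Of 14397 RefSeq-matched genes with a value, 15.4% were higher and 17.8% were lower, and their median was -0.05. The share of lower genes among those past the 2-fold threshold was 73.7%, against 61.1% with no scaling between arrays. The lower genes were 5 ligands, 4 receptors and 5 antagonists, and the higher ones were Wnt10b, Fzd3, Fzd4, Lef1 and Tcf7. These directions are relative to the bulk of the genes on each array. The 7 spike-in probes of the labelling kit that were well above background on all arrays were 2.26 lower on the log2 scale on the p53-null MEF array than on the MEF array. An alternative that set the arrays equal on these probes, chosen after seeing the data, left 2 lower genes, Wnt10a and Sfrp4, and gave 23 higher ones, while the median of all genes moved to 2.30 and the share of lower genes among those past 2-fold to 8%. Wnt2, Wnt6, Wnt9a, Fzd6, Fzd8, Fzd10, Lrp5, Dkk3 and Wif1 turned from lower to above MEF under it. The ES cell counts stayed at 11 and 22 under it.

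**Figure D2:**
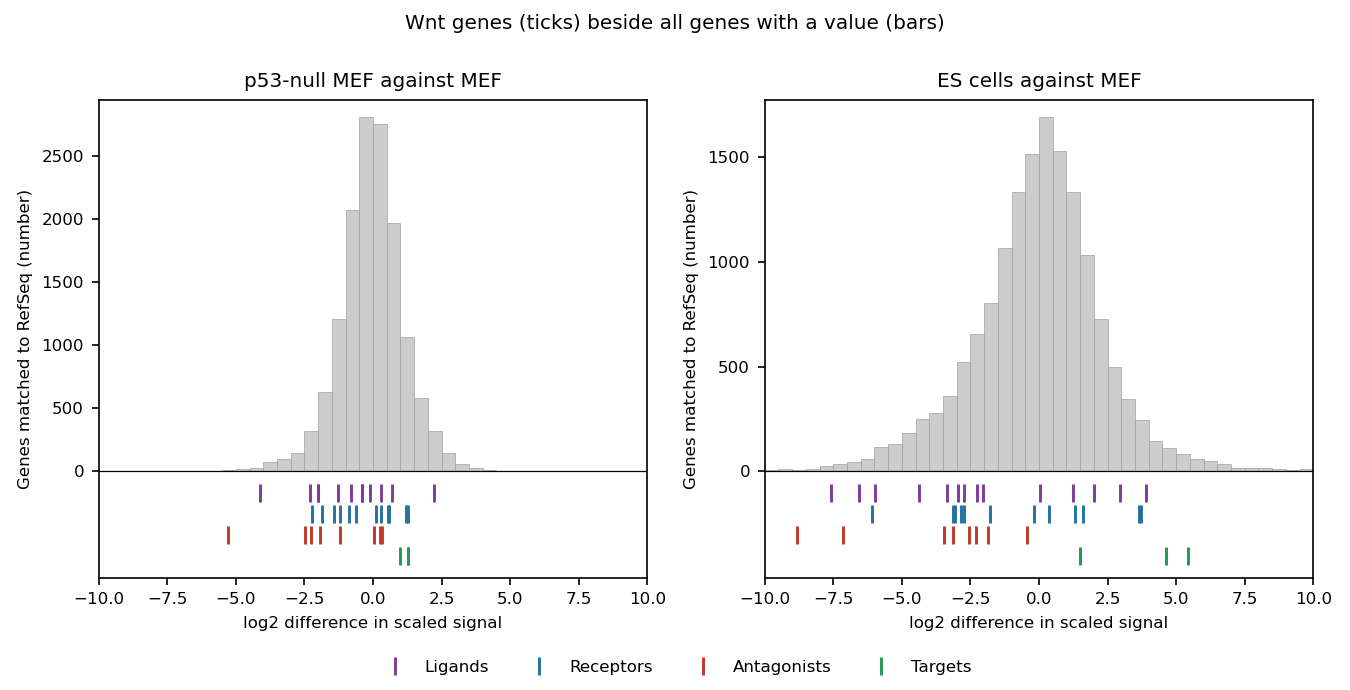
Number of genes matched to RefSeq in each interval of 0.5 of the log2 difference from MEF (bars; the end bars also hold values beyond 10 in either direction), with the Wnt genes as ticks by role. The target ticks lie to the right of 0 in both plots and the antagonist ticks of ES cells to the left of 0.

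Among the ligands, the widest difference between the fibroblasts was that of Wnt10a, which skin and teeth need for their development. Its probe, at chr1:74737266-74737325 of build mm8, gave 232 units in p53-null MEF, 64.7 in ES cells and 4078 in MEF. MEF stood high and the other groups low: the difference was -4.13 ± 0.20 in p53-null MEF, or 17.6-fold lower, and -5.98 ± 0.21 in ES cells, or 63.1-fold lower. Wnt6, its neighbour 19.2 kb away on the same chromosome and strand, did not share this pattern in ES cells. Its probe gave 25.3 units in p53-null MEF, 103 in ES cells and 102 in MEF. By it p53-null MEF were 4.03-fold lower (2.03-fold with normexp) and ES cells differed by 0.02 ± 0.21. A second Wnt6 probe gave -1.12 ± 0.26 in p53-null MEF and 0.66 ± 0.22 in ES cells.

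Wnt2, known from lung and placenta, gave 476 units in p53-null MEF, 3.47 in ES cells and 1917 in MEF at chr6:17939284-17939343. The difference was -2.01 ± 0.20 in p53-null MEF, and ES cells were at least 191-fold lower, where it was not well above background; with normexp the ES cell value was 31.3-fold. Wnt11 gave 195 units in p53-null MEF, 46.0 in ES cells and 948 in MEF, or 4.86-fold lower in p53-null MEF and 20.6-fold lower in ES cells. Wnt9a gave 401 units in p53-null MEF, 95.5 in ES cells and 972 in MEF, a difference of -1.28 ± 0.20 in p53-null MEF and -3.35 ± 0.21 in ES cells. In each of these genes MEF had the highest signal, p53-null MEF an intermediate one and ES cells the lowest, except that Wnt2 and Wnt9a in p53-null MEF pass MEF with spike-in scaling. A second Wnt9a probe was not well above background on any array.

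Wnt10b, a ligand known to hold back fat cell formation, ran the other way in p53-null MEF. Its probe at chr15:98600121-98600180 gave 223 units in p53-null MEF, 2.45 in ES cells and 47.9 in MEF. It was 4.65-fold higher in p53-null MEF (2.22 ± 0.22), the only ligand past 2-fold in that direction. In ES cells it was at least 4.77-fold lower (1.66-fold with normexp). Wnt1, its neighbour 21.1 kb away on the opposite strand, was not well above background in any group. Wnt16 gave 1521 units in p53-null MEF, 9.14 in ES cells and 943 in MEF, so it was at least 94.0-fold lower in ES cells (13.8-fold with normexp) and differed by 0.69 ± 0.20 between the fibroblasts. Wnt2b was well above background in p53-null MEF alone, at 15.1 units, close to the lowest such signal of that array, 12.8 units.

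Wnt4, Wnt5a and Wnt5b were lower in ES cells and within 2-fold between the fibroblasts. The probes of Wnt4 and Wnt5a are shown because each crosses a splice junction, so that it reads spliced RNA: on mm8 the first spans 569 bases (chr4:136567851-136568419, + strand) and the second 3963 bases (chr14:27345426-27349388, + strand). Capitals mark the 25 bases they share in an ungapped overlap of 51, which is 49.0% of it.
Wnt4: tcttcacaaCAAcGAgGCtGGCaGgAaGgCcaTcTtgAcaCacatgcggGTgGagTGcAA
Wnt5a: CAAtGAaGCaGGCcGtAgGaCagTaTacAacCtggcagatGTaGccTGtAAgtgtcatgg
The Wnt4 probe gave 119 units in p53-null MEF, 50.5 in ES cells and 208 in MEF, a difference of -2.05 ± 0.22 in ES cells and -0.81 ± 0.21 in p53-null MEF. The Wnt5a probe gave 214 units in p53-null MEF, 36.6 in ES cells and 280.4 in MEF, which is 7.67-fold lower in ES cells and -0.39 ± 0.21 in p53-null MEF. Both genes were lowest in ES cells. Wnt5b gave 269, 53.1 and 353 units in p53-null MEF, ES cells and MEF, 6.66-fold lower in ES cells. A second Wnt5b probe was -1.59 ± 0.27 in p53-null MEF, past 2-fold where the brighter probe, at -0.39 ± 0.20, was not.

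Of the 11 ligands well above background in ES cells, 8 were so on all 3 arrays. Of 14 ligands with a value, 4 were higher in ES cells than in MEF (28.6%, beside 30.9% of all genes). Wnt8a, a ligand of the early embryo, gave 185 units in ES cells and was not well above background in either fibroblast, at 3.05 and 2.69 units, so it was at least 15.0-fold higher in ES cells than in MEF. Wnt3, which the mouse embryo needs to start gastrulation, gave 97.2 units in ES cells at chr11:103632185-103632244, 3.20 in p53-null MEF and 10.4 in MEF. It was at least 7.86-fold higher in ES cells than in MEF (2.22-fold with normexp). Its second probe was at least 4.70-fold higher. Wnt3a, widely used to activate the pathway in culture, gave 29.5 units in ES cells against 3.37 in p53-null MEF and 2.58 in MEF. It was at least 2.39-fold higher in ES cells than in MEF (1.42-fold with normexp). Wnt7b was measured on all arrays, at 39.9 units in p53-null MEF, 174 in ES cells and 43.1 in MEF, which is 4.04-fold higher in ES cells and -0.11 ± 0.25 in p53-null MEF. All 4 were high in ES cells and low in both fibroblasts. Wnt3 and Wnt3a each lie beside another ligand on chromosome 11: Wnt9b, 88.5 kb from Wnt3, was not well above background, and Wnt9a, 85.0 kb from Wnt3a, was lower in ES cells.

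**Figure D3:**
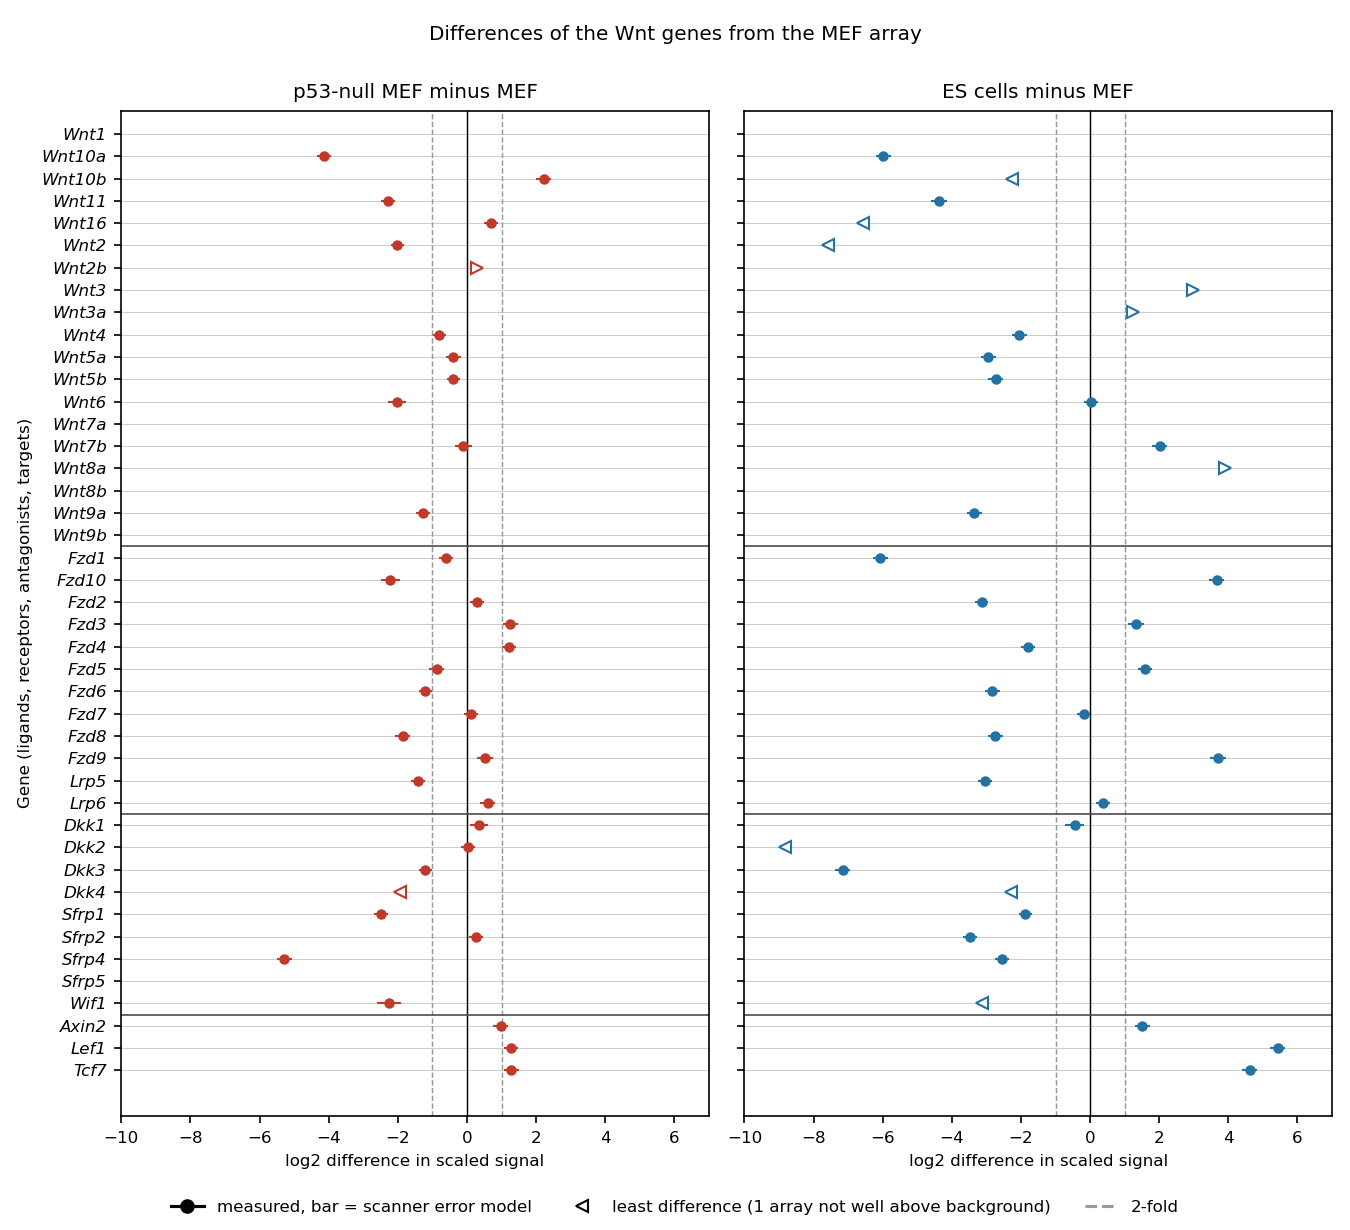
log2 difference from MEF of each Wnt gene in p53-null MEF (left) and ES cells (right), with bars for the scanner error model, open triangles for least differences and dashed lines at 2-fold; a row with no symbol was well above background on neither array. Axin2, Lef1 and Tcf7 lie right of 0 in both panels, and all 8 antagonists with a value lie left of 0 in ES cells.

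Among the receptors, 6 of 12 were lower in ES cells and 4 were higher (50% and 33.3%, beside 29.7% and 30.9% of all genes). The higher share was thus near that of all genes. Fzd1 had the widest difference, with 6837 units in p53-null MEF, 155 in ES cells and 10456 in MEF at chr5:4760009-4760068, which is 67.4-fold lower in ES cells and -0.61 ± 0.20 in p53-null MEF. Fzd6 gave 347, 112 and 797 units in p53-null MEF, ES cells and MEF, with differences of -1.20 ± 0.20 and -2.83 ± 0.21. Lrp5, a co-receptor that Frizzled proteins share, gave 572, 183 and 1517 units in the same order, 2.65-fold lower in p53-null MEF and 8.28-fold lower in ES cells. Fzd6 and Lrp5 were thus low in both groups, except that in p53-null MEF both pass MEF with spike-in scaling (1.06 and 0.86). Lrp6, the other co-receptor, stayed within 2-fold, at 152, 129 and 100.2 units, with differences of 0.60 ± 0.21 and 0.37 ± 0.21.

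Fzd10, Fzd9, Fzd5 and Fzd3 were higher in ES cells. Fzd10 gave 20.1 units in p53-null MEF, 1188 in ES cells and 93.9 in MEF at chr5:128918631-128918690, which is 12.7-fold higher in ES cells and a difference of -2.22 ± 0.28 in p53-null MEF. Its second probe was 5.75-fold higher in ES cells, and its MEF signal was at least 4.20 times that of p53-null MEF. Fzd10 was the only receptor lower in p53-null MEF and higher in ES cells. In p53-null MEF its brighter probe was dim, with a fold of 4.67 that fell to 2.14 with normexp. With spike-in scaling that difference was 0.04. Fzd9 gave 71.1, 639 and 49.2 units in p53-null MEF, ES cells and MEF, 13.0-fold higher in ES cells and 0.53 ± 0.23 in p53-null MEF. Fzd5 gave 56.0, 309 and 102 units, 3.02-fold higher in ES cells and -0.87 ± 0.22 in p53-null MEF. A probe of the same transcript, left out because only some files call it Fzd5, gave 0.04 ± 0.21 in p53-null MEF. It was 2.04-fold higher in ES cells. Fzd3 gave 111, 115 and 46.2 units, higher than MEF in both groups, by 1.26 ± 0.23 and 1.32 ± 0.23.

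Fzd4, which also binds the non-Wnt ligand norrin, separated the fibroblasts from each other and from ES cells. It gave 2364 units in p53-null MEF, 292 in ES cells and 1019.9 in MEF, which is 2.32-fold higher in p53-null MEF and 3.49-fold lower in ES cells. Fzd8 gave 121, 65.8 and 439.8 units in p53-null MEF, ES cells and MEF, a difference of -1.86 ± 0.21 and -2.74 ± 0.21. Its second probe was also lower in ES cells, by at least 3.51-fold, and gave 0.15 ± 0.25 in p53-null MEF, so the lower Fzd8 signal in p53-null MEF rests on 1 of its probes.

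Fzd2 and Fzd7 are close relatives, and their probes disagreed. The pair of probes below is shown because it is the most alike among the 57: over an ungapped overlap of 50 bases, 42 (84.0%) are the same, marked in capitals, and no other pair from different Wnt genes shared at least 70% of an overlap of at least 30 bases. The first lies at chr11:102422389-102422448 and the second at chr1:59429069-59429128 of mm8, both on the + strand.
Fzd2: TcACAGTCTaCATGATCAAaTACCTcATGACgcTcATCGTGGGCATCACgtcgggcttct
Fzd7: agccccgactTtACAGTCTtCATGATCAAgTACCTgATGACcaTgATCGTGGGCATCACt
The Fzd2 probe gave 10597 units in p53-null MEF, 993 in ES cells and 8748 in MEF, 8.81-fold lower in ES cells and 0.28 ± 0.20 in p53-null MEF. The Fzd7 probe of the same stretch gave 315 units in p53-null MEF, 32.3 in ES cells and 250.4 in MEF, with differences of 0.33 ± 0.21 and -2.95 ± 0.23 that resemble those of Fzd2. The brighter Fzd7 probe, at chr1:59430894-59430953, gave 3779, 3055 and 3475 units in p53-null MEF, ES cells and MEF, differences of 0.12 ± 0.20 and -0.19 ± 0.20. The Fzd7 probes thus disagreed by 2.77 on the log2 scale in ES cells, and the part of Fzd2 RNA on the Fzd7 probe of the shared stretch was not tested. A second Fzd2 probe, at chr11:102423821-102423880, gave 1045 units in p53-null MEF, 2.39 in ES cells and 58.6 in MEF, which is 17.8-fold higher in p53-null MEF where the first probe differed by 1.21-fold. Both Fzd2 probes were low in ES cells, where the second was at least 5.84-fold lower.

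**Figure D4:**
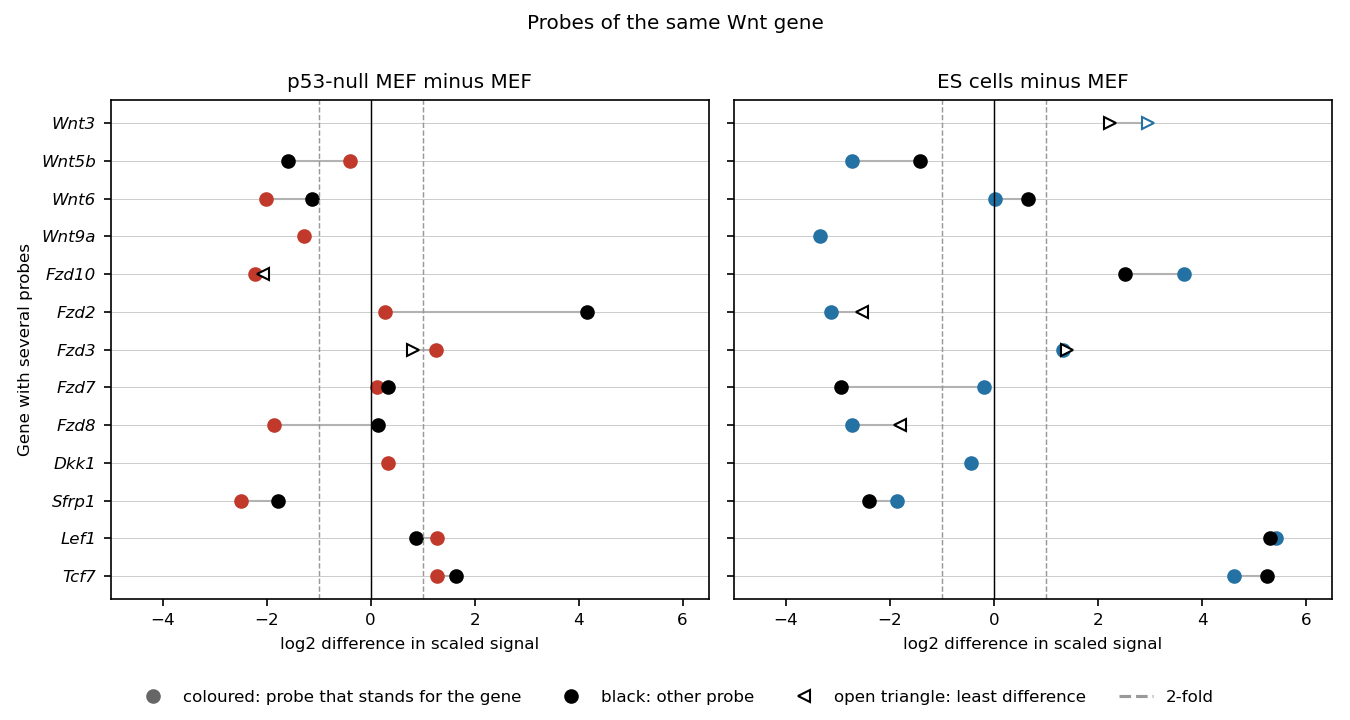
log2 difference from MEF for each probe of the 13 Wnt genes with several probes; the coloured symbol is the probe that stands for the gene, black symbols are its other probes, and open triangles are least differences. The widest gaps are those of Fzd2 in p53-null MEF, from 0.28 to 4.16, and of Fzd7 in ES cells, from -2.95 to -0.19.

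Of the 13 genes with several probes, 11 had a value from more than 1 probe in ES cells, where all 11 gave the same sign and 3 (Wnt5b, Fzd7 and Fzd10) had probes over 2-fold apart. In p53-null MEF 10 had such values, 9 gave the same sign, and Wnt5b, Fzd2 and Fzd8 had probes over 2-fold apart. No gene had probes past 2-fold in opposite directions.

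Among the secreted antagonists, 7 of the 8 with a value were lower in ES cells than in MEF, with a median of -2.85, and 0 were higher, beside 29.7% of all genes lower and 30.9% higher. Dkk2 gave 4608 units in p53-null MEF, 2.25 in ES cells and 4523 in MEF at chr3:132116699-132116758, at least 451-fold lower in ES cells (79.3-fold with normexp) and 0.03 ± 0.20 between the fibroblasts. Dkk3, a relative of the Dkk family that does not act on Lrp5 and Lrp6 in the usual way, gave 2503 units in p53-null MEF, 40.3 in ES cells and 5755 in MEF, 143-fold lower in ES cells and 2.30-fold lower in p53-null MEF. Sfrp2 gave 11651, 888 and 9809 units in p53-null MEF, ES cells and MEF, 11.0-fold lower in ES cells and 0.25 ± 0.20 in p53-null MEF. Dkk2, Dkk3 and Sfrp2 were bright in both fibroblasts and low in ES cells. Dkk1 was the antagonist within 2-fold in ES cells, at 43.1, 25.0 and 34.1 units in p53-null MEF, ES cells and MEF, or 0.34 ± 0.26 and -0.45 ± 0.27.

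In p53-null MEF 5 of these 8 antagonists were lower than in MEF, 0 were higher (beside 17.8% and 15.4% of all genes) and the median was -1.57, though Dkk3 and Wif1 turn with spike-in scaling. Sfrp4 had the widest difference of any Wnt gene between the fibroblasts. Its probe at chr13:19640084-19640143 gave 79.3 units in p53-null MEF, 524 in ES cells and 3089 in MEF, or 39.0-fold lower in p53-null MEF (-5.28 ± 0.21) and 5.90-fold lower in ES cells. Sfrp1 gave 798, 1223 and 4483 units in p53-null MEF, ES cells and MEF, 5.62-fold lower in p53-null MEF and 3.67-fold lower in ES cells. By these signals both genes were lowest in p53-null MEF and highest in MEF, but with spike-in scaling Sfrp1 was -0.23 in p53-null MEF and -1.58 in ES cells, so that its order turned. A second Sfrp1 probe gave -1.79 ± 0.25 and -2.41 ± 0.28, lower in both groups but in the other order. Wif1 gave 18.7, 9.35 and 88.5 units, 4.74-fold lower in p53-null MEF and at least 8.82-fold lower in ES cells (2.31-fold and 2.16-fold with normexp). Dkk4 was well above background in MEF alone, at 49.1 units, which is at least 3.85-fold the signal of p53-null MEF and at least 4.89-fold that of ES cells. With normexp these folds were 1.99 and 1.78.

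The targets went the opposite way. Lef1 gave 150.4 units in p53-null MEF, 2674 in ES cells and 62.0 in MEF at chr3:131213273-131213332, which is 43.1-fold higher in ES cells (5.43 ± 0.21) and 2.42-fold higher in p53-null MEF. A Lef1 probe that spans 18162 bases of the genome, and so reads spliced RNA, gave 5.30 ± 0.26 and 0.87 ± 0.28, and its other probe was not well above background in any group. Tcf7 gave 123 units in p53-null MEF, 1239 in ES cells and 50.5 in MEF at chr11:52096035-52096094, which is 24.5-fold higher in ES cells and 2.43-fold higher in p53-null MEF. Its second probe gave 5.25 ± 0.34 and 1.64 ± 0.35. Axin2, a negative regulator that the pathway itself switches on, gave 111, 159 and 56.0 units in p53-null MEF, ES cells and MEF, 2.85-fold higher in ES cells and 0.98 ± 0.22, just inside 2-fold, in p53-null MEF. In all 3 genes MEF had the lowest signal and ES cells the highest. In p53-null MEF, Lef1 and Tcf7 were within 2-fold with normexp background correction, as was the receptor Fzd3.

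The upstream sequence of the Wnt genes was searched for 2 words bound by Tcf7 and Lef1 proteins, CTTTGAA and CTTTGAT, on both strands. The 250 bases before each of 36 RefSeq (GRCm38.p6) start sites were read, for 29 of the 43 genes. A match was found before 3 of these starts, 1 each of Dkk1, Wnt11 and Wnt5b. Of all 32851 regions of that length, 7.48% held one. The other Wnt genes, Wnt8a and Fzd8 among them, were not searched. The Wnt windows and all regions may thus not have been drawn alike. Axin2, the first listed start of Lef1, and Wnt11 are shown, the first pair as target genes and Wnt11 for its match, in capitals, the reverse complement of CTTTGAT, which begins 51 bases before the start. They lie at chr11:108920099-108920348, chr3:131110047-131110296 and chr7:98834862-98835111, all on the + strand.
Axin2: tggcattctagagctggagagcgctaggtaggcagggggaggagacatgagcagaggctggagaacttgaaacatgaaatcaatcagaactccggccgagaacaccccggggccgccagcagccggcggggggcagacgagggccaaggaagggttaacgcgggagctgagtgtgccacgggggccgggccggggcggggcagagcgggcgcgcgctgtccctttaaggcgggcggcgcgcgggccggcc
Lef1: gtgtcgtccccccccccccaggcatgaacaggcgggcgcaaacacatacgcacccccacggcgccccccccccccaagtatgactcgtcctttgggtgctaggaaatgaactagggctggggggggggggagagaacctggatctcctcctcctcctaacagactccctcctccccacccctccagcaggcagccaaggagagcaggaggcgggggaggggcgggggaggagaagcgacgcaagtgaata
Wnt11: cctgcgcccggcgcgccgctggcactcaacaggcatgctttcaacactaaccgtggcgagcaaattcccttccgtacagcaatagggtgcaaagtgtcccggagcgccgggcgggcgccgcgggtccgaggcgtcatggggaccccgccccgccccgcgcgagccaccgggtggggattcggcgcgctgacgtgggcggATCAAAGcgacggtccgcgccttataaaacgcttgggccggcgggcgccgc
Neither word was found in these windows of Axin2 (1 start), Lef1 (4 starts) or Tcf7 (2 starts), which says nothing of sequence outside them. A match describes letters and is not shown to be a bound site.

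Other genes of the pathway were read from a list of 58, of which 57 were on the array. In ES cells 11 of the 54 with a value were higher than in MEF and 23 lower (20.4% and 42.6%, beside 30.9% and 29.7% of all genes), with a median of -0.41. In p53-null MEF 4 of 51 were higher and 11 lower (7.84% and 21.6%, beside 15.4% and 17.8% of all genes), with a median of -0.28, so the lower share was near that of all genes. With normexp background correction 8 of these 15 p53-null MEF genes were within 2-fold: Porcn (-0.85), Lgr5 (-0.90), Ror1 (-0.70), Dkkl1 (-0.60), Btrc (-0.97), Pygo1 (-0.79), Rnf43 (0.89) and Dact2 (0.74). In ES cells 7 of 34 were, namely Bcl9, Dvl1, Kremen2, Lgr6, Pygo1, Ror1 and Ror2. Lower genes in ES cells were most frequent among genes of Wnt secretion and co-reception, with 6 of 9 lower. Next came the R-spondin group, with 5 of 8 lower: Rspo2, Rspo3, Lgr5, Lgr6 and Rnf43. R-spondins amplify Wnt signals, but the group also held the Lgr receptors, Znrf3 and Rnf43. Wls, the carrier that takes Wnt proteins to the cell surface, gave 16674 units in p53-null MEF, 471 in ES cells and 17669 in MEF, 37.5-fold lower in ES cells. A second Wls probe was 5.85-fold lower in ES cells and 3.56-fold higher in p53-null MEF, where the brighter probe gave -0.08 ± 0.20. Porcn, which attaches the lipid of Wnt proteins, ran the other way in ES cells. It gave 158, 1475 and 324 units, 4.55-fold higher in ES cells and 2.06-fold lower in p53-null MEF. Rspo2 gave 3419 units in p53-null MEF, 2.79 in ES cells and 6609 in MEF, at least 659-fold lower in ES cells (82.7-fold with normexp). Lgr5, an R-spondin receptor, gave 290.2, 11.6 and 621 units, 2.14-fold lower in p53-null MEF and at least 53.5-fold lower in ES cells (9.45-fold with normexp). Frzb, a further relative of the Sfrp genes, gave 248, 2.28 and 711 units, 2.87-fold lower in p53-null MEF and at least 70.8-fold lower in ES cells. Rnf43, a ligase that removes Frizzled receptors from the cell surface, gave 725, 45.6 and 313 units, 2.31-fold higher in p53-null MEF and 6.87-fold lower in ES cells.

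The other surface and secreted genes past 2-fold were mostly lower in ES cells. Among co-receptors, Ryk gave 16087, 4926 and 20029 units in p53-null MEF, ES cells and MEF (-2.02 ± 0.20 in ES cells), Ror2 gave 96.6, 77.1 and 162 units (-1.07 ± 0.21), and Ror1 gave 13.5, 18.0 and 41.1 units (-1.19 ± 0.29). The p53-null MEF signal of Ror1 was dim, at least 3.05-fold below that of MEF. The glypicans, which hold Wnt proteins at the surface, were lower too, Gpc3 with 5149, 1089 and 4107 units (-1.92 ± 0.20) and Gpc4 with 13149, 2034 and 19937 units (-3.29 ± 0.20). Of the R-spondin genes, Rspo3 gave 116, 2.48 and 93.4 units, at least 9.31-fold lower in ES cells (2.38-fold with normexp). The receptor Lgr6 gave 14.5, 12.0 and 28.5 units (-1.25 ± 0.37). The antagonist Sostdc1 gave 73.7, 3.13 and 147 units, at least 14.6-fold lower in ES cells (3.01-fold with normexp). Apcdd1, another antagonist, gave 4879, 653 and 2678 units, 4.10-fold lower in ES cells. A second Apcdd1 probe, at 30.6, 29.3 and 27.3 units, gave 0.10 ± 0.27 in ES cells. Kremen2, which works with Dkk proteins, and Dkkl1, a relative of Dkk3, were exceptions. Kremen2 gave 49.6 units in ES cells and was not well above background elsewhere, at least 4.01-fold higher than in MEF (1.78-fold with normexp). Dkkl1 gave 13.0, 191 and 43.7 units, 4.36-fold higher in ES cells, and its MEF signal was at least 3.35 times that of p53-null MEF.

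Inside the cell, 3 of 13 cytoplasmic genes were higher and 2 lower in ES cells, with a median of -0.10. These are 23.1% and 15.4%, beside 30.9% and 29.7% of all genes. In p53-null MEF 2 were higher and 2 lower (15.4% each, beside 15.4% and 17.8% of all genes). Ctnnb1, the gene for beta-catenin, gave 15867 units in p53-null MEF, 18695 in ES cells and 14751 in MEF, differences of 0.11 ± 0.20 and 0.34 ± 0.20. A second Ctnnb1 probe gave 0.32 ± 0.20 and 0.35 ± 0.20, while another, at 1908, 1670.1 and 597 units, was 3.20-fold higher in p53-null MEF and 2.80-fold higher in ES cells. Dact2 was higher than MEF in both groups, with 215, 1299 and 105 units, 12.3-fold in ES cells and 2.04-fold in p53-null MEF, and its relative Dact1 gave 743, 201 and 240.3 units, 3.09-fold higher in p53-null MEF. Nkd1, an inhibitor that the pathway switches on, was lower than MEF in both, with 428, 323 and 1099 units (-1.36 ± 0.20 and -1.77 ± 0.20). With spike-in scaling Nkd1 turned to 0.90 in p53-null MEF. Btrc gave 75.7, 167 and 179 units, 2.36-fold lower in p53-null MEF. In ES cells Dvl2 (851, 1327 and 605 units) was 2.20-fold higher, Apc (1281, 1958 and 789 units) 2.48-fold higher and Dvl1 (3215, 1867 and 3734 units) just past 2-fold lower. A second Dvl1 probe gave -1.96 ± 0.21 in p53-null MEF and -1.65 ± 0.21 in ES cells, where the brighter one gave -0.22 ± 0.20 in p53-null MEF.

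Of the 12 nuclear genes, 2 were higher and 4 lower in ES cells (16.7% and 33.3%, beside 30.9% and 29.7% of all genes). Tle4, a co-repressor of Tcf proteins, gave 3501, 48445 and 3156 units, 15.4-fold higher in ES cells, while Tcf7l2, a relative of Tcf7, gave 2293, 499 and 3114 units, 6.24-fold lower. Tle2, another co-repressor, gave 1398, 76.3 and 1385 units, 18.1-fold lower in ES cells. The beta-catenin partner Bcl9 was higher than MEF in both groups at its brighter probe, with 490.5, 336 and 163 units. A second Bcl9 probe gave 2.10 ± 0.21 in p53-null MEF and -0.29 ± 0.22 in ES cells, so the probes disagreed in ES cells. Its relative Bcl9l was lower in both groups, with 193, 19.7 and 588 units, by 3.05-fold in p53-null MEF and 29.9-fold in ES cells (8.57-fold with normexp). Pygo1 was also lower in both, with 38.7, 36.4 and 87.4 units. In p53-null MEF Bcl9l and Pygo1 turned with spike-in scaling, to 0.66 and 1.09. Tcf7 and Tcf7l2 thus stood on opposite sides in ES cells.

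Other genes known as Wnt targets were split. Sp5 gave 3542 units in ES cells and was not well above background in either fibroblast, at least 286-fold higher than in MEF (50.9-fold with normexp). Myc was 3.54-fold higher in ES cells, at 6544, 17993 and 5082 units in p53-null MEF, ES cells and MEF. Ccnd1, the gene for cyclin D1, gave 7711, 3802 and 32109 units, 4.16-fold lower in p53-null MEF and 8.45-fold lower in ES cells. Ccn5 gave 1475, 22.1 and 11517 units, 7.81-fold lower in p53-null MEF and 521-fold lower in ES cells (122-fold with normexp). With spike-in scaling the p53-null MEF differences were 0.21 for Ccnd1 and -0.70 for Ccn5. Ccn4 was lower in ES cells alone, with 16270.0 units in p53-null MEF, 571 in ES cells and 10673 in MEF, 18.7-fold. Tnfrsf19 gave 175, 350.3 and 113 units, a difference of 1.63 ± 0.21 in ES cells. Of the 7 with a value in ES cells, 3 were higher and 3 lower (42.9% each, above the shares of all genes), so the direction of Lef1, Tcf7 and Axin2 was not that of every listed target.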

How the data were processed

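The 3 deposited scanner files hold spot intensity values on a linear scale, and the file headers say that the authors used Agilent Feature Extraction 9.5.3.1 and subtracted the background. A value table of the series held the same intensity values (ratios of 0.995 to 1.005) and served as an alternative. From the processed signal, log2 values were taken and the 75th percentile of 43379 non-control spots was subtracted on each array. Control spots and spots marked as uneven or outlying were left out, and spots of a probe were averaged. The probe with the highest mean stood for its gene. The software's mark for signal well above background had to hold for 50% of a probe's spots or more. A lower limit divides the bright signal by that of the dim probe or, if higher, by the least signal so marked, 12.8, 10.0 and 12.4 units on the p53-null MEF, ES cell and MEF arrays. Errors combine the scanner software's 10% per signal. Probe positions come from the newer of the array's design files (mm8); exons and UTRs were not assigned. Names were matched to RefSeq GRCm38.p6 (19918 of 27688 labels). Every Wnt gene is accounted for, and other genes come from a list of pathway genes, by the 2-fold rule; members and lists were chosen with earlier results of these data known. Python 3.11.15, pandas 2.3.3 and limma 3.58.1 (for normexp) were used. The calls were tried on simulated data in which only bright probes were changed, by more than the threshold. Lower limits were not scored there, and spread between cultures was not simulated. Alternatives changed the background correction, scaling, filter, probe choice or source table.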

Additional observations from a re-analysis of the deposited data

How the results depend on the processing

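With normexp background correction, the Wnt genes higher in p53-null MEF fell from 5 to 2, without Fzd3, Lef1 and Tcf7, and Dkk4 was no longer lower. The share of lower genes among the Wnt genes past 2-fold went from 73.7% to 86.7%. For all genes this share is not given here, and their median was -0.07 with normexp. The ES cell median moved to -1.31 with normexp, -2.48 with median scaling, -2.52 with quantile normalization, -1.80 with no filter on dim probes and -1.96 with spike-in scaling. The p53-null MEF median moved to -0.07 with no scaling and -0.61 with the mean of all probes. Fzd6 and Dkk3 were within 2-fold with no scaling, Fzd8 and Lef1 with the mean of all probes, and Wnt9a with either. In ES cells Wnt3a fell within 2-fold with quantile normalization, and with normexp so did Wnt3a, Wnt10b, Fzd3, Dkk4 and Axin2. Apart from spike-in scaling, no alternative tried turned a direction among the Wnt genes past 2-fold. Among the other pathway genes, Btrc, Lgr5, Porcn and Pygo1 were within 2-fold in p53-null MEF with no scaling, Lgr5 and Dact2 with the mean of all probes, and Dact2 with quantile normalization. In ES cells Apcdd1, Bcl9 and Rnf43 were within 2-fold with the mean of all probes. Bcl9 and Dvl2 were so there with median scaling, and Dvl1 with no scaling. With spike-in scaling Dvl1, Lgr6, Pygo1, Ror1 and Ror2 were within 2-fold in ES cells. The cause was not tested.

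Spike-in scaling, chosen after seeing the data, gave 23 higher and 2 lower Wnt genes and a median of 1.87 in p53-null MEF. Directions turned there for Wnt2 (0.25), Wnt6 (0.25), Wnt9a (0.99), Fzd10 (0.04), Fzd6 (1.06), Fzd8 (0.41), Lrp5 (0.86), Dkk3 (1.06), Wif1 (0.02), Porcn (1.23), Lgr5 (1.17), Frzb (0.74), Nkd1 (0.90), Btrc (1.02), Bcl9l (0.66), Pygo1 (1.09) and Ccnd1 (0.21). The shift follows from its construction.

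No paired analysis was possible because each group has 1 array, and the slide could not be fitted as a block for the same reason. Signal over background limits Wnt2b, Wnt3a and, in p53-null MEF, Wif1, Fzd10 and Wnt6. Their signals lie near the lowest that count as well above it, and the number of arrays limits the precision of every value.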
